A study of Sus scrofa with 8 samples.

Results

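In porcine muscle satellite cells, 3736 open chromatin regions had an ATAC-seq peak in all 4 libraries at 0 h and in both WT 60 h libraries, but in neither CBP 60 h library. They made up 2.09% of the 178498 regions obtained when peaks of the 8 libraries on chromosomes 1 to 18 and X were merged wherever they overlapped by 1 bp, and 6.29% of the 59352 regions called in the other 6 libraries. They were chosen by the peak calls of all 8 libraries, so those calls, and the absence of a call in CBP 60 h cells, are a description and not a finding. A call is a threshold on height, so the rule also favours weak sites, and the heights of the set are a description too. The difference between CBP and WT at 0 h and the positions of the regions were not part of the rule.

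The 8 libraries form 4 groups of 2, named CBP 60 h, WT 60 h, CBP 0 h and WT 0 h. In the labels 60 h stands for differentiation and 0 h for proliferation, and every sample is given as a muscle satellite cell from muscle. The treatment protocol, the same text for all groups, names SGC-CBP30 at 5 uM/ml as written there, for 48 h in proliferation and for 60 h in differentiation. It does not say which groups received it, no allele is given for either, and the names CBP and WT are kept from the labels. The cell line is labelled C3H, while the organism is pig and the peaks lie on the pig build Sscrofa11.1. The series' design text speaks of 3 repeats or groups, in wording that can be read either way, while 2 libraries per group were analysed here. Nothing in the labels says that the 2 came from separate cultures or animals, so p-values here rest on a spread between libraries that may be technical only. The test, limma, also draws the spread of each region toward that of all regions tested of like height. An SE is thus not the spread of a region's own libraries, and a small p-value does not show that they were close.

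Satellite cells are the stem cells of skeletal muscle: they proliferate as myoblasts, leave the cell cycle, express a cascade of myogenic transcription factors and fuse into myotubes. CBP, the product of CREBBP, and its relative EP300 are acetyltransferases that acetylate histones at enhancers and promoters and serve as coactivators of MYOD1 in muscle cells. SGC-CBP30 is a small molecule that occupies the bromodomain of both proteins, the pocket with which they bind acetylated lysine. ATAC-seq uses a transposase that cuts accessible DNA, so the height of a peak reports how often a site was accessible across the cells of a library. In such bulk data, fewer cells with an open site and a less open site in each cell cannot be told apart.

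The regions without a call in CBP 60 h cells were weak to middling sites in every library that called them. The number of reads stacked on the summit of a peak, the summit pileup, was recovered from the deposited peak lists and scaled so that the 50575 regions called in all 8 libraries had the same mean log2 pileup in every library. On this scale the median height of the 3736 regions was 21.4 and 21.6 reads in the 2 WT 60 h libraries, 23.7 reads in each CBP 0 h library, and 27.5 and 27.7 reads in the WT 0 h libraries. Regions called in all 8 libraries had medians of 42.6 and 41.9 reads in CBP 60 h, 44.0 and 43.2 in WT 60 h, 46.0 and 45.6 in CBP 0 h, and 45.9 and 45.3 in WT 0 h. The set was thus lower than the shared regions in all 6 libraries that called it, and its CBP 0 h medians were both below its WT 0 h medians.

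**Figure D1:**
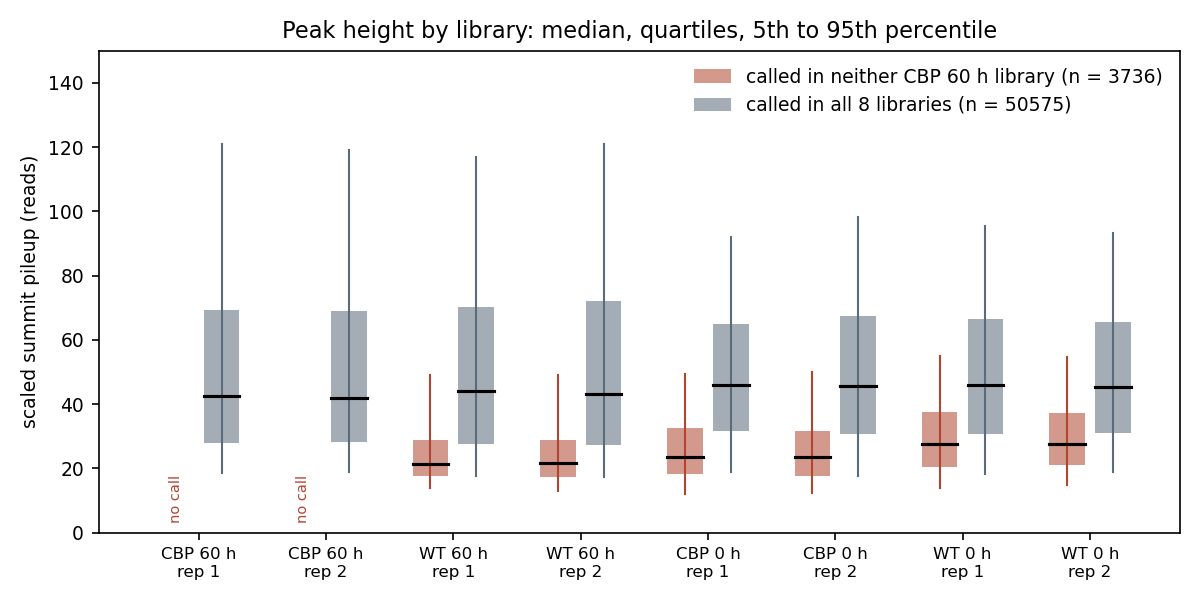
Scaled summit pileup (reads, linear axis) by library for the 3736 regions called in neither CBP 60 h library and the 50575 regions called in all 8 libraries; black lines are medians, boxes the quartiles and thin lines the 5th to 95th percentiles over regions. The 3736 regions have medians of 21.4 to 27.7 reads and no value in the CBP 60 h libraries, while the regions called in all 8 have medians of 41.9 to 46.0 reads.

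The CBP 60 h libraries were not the shallowest of the series. Depth relative to the shallowest library was 1.21 and 1.08 in CBP 60 h, against 1.11 and 1.00 in WT 60 h, and 1.98 and 1.43 in CBP 0 h, against 1.69 and 2.09 in WT 0 h. They also held slightly more peaks, with 88871 and 87977 in CBP 60 h, against 86282 and 82696 in WT 60 h. Signal over background did not follow depth. In regions called in all 8 libraries, the authors' fold had medians of 5.68 and 5.95 in CBP 60 h, against 6.04 and 5.83 in WT 60 h. The first CBP 60 h library was the lowest of the series. The part of depth and signal in the missing calls was not tested. A region that was not called is not shown to be closed, since a site with fewer reads than the peak caller accepts is missing from the list. The lowest pileup called was 8 reads in each CBP 60 h library, or 10.7 and 10.8 on the common scale, and 5% of their peaks were below 13.3 and 14.9. In their weaker WT 60 h library, 3078 of the 3736 regions (82.4%) were above 14.9, 1445 (38.7%) were above 1.5 times that height, and 687 (18.4%) were above 2 times that height. The caller judges a peak against local background, so these shares do not count regions clear of the limit at their own site. A region inside PAX7 had 47.5 scaled reads in its weaker WT 60 h library, yet a −log10 q of 2.88 there. Only 2116 of the 3736 lay on low local background in WT 60 h. Read coverage of the CBP 60 h libraries outside their peaks was not analysed here.

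The rule has no margin at its edge. The −log10 q value that the authors' peak caller gave each region in its weaker WT 60 h library was 1.34 at the lowest, 4.81 at the median and 27.4 at the highest, with quartiles of 3.54 and 6.59. The 5 weakest regions that qualified all had 1.34, which is 7 reads in the second WT 60 h library, and lay nearest to RPF2, IBTK, WBP4, USF3 and THSD7B. The 5 regions that missed the rule by the least had a single peak in CBP 60 h, of 8 to 10 reads and a −log10 q of 1.35 to 1.45, and lay nearest to LOC100154105, ARHGEF11, TNIK, MLLT3 and INVS. In total 5041 regions were called in the other 6 libraries and in exactly 1 of the 2 CBP 60 h libraries, and 438 of the 3736 regions (11.7%) had a CBP 60 h peak within 1 kb of their edge.

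Weak sites took most of the set, as a rule that asks for a missing call favours. Among regions called in all 4 libraries at 0 h and in both WT 60 h libraries, 21.9% had no CBP 60 h call in the lowest of 10 equal bins of height at 0 h, 9.08% in bin 5 and 0.177% in the highest bin. The same count with the groups exchanged, regions of both CBP 60 h libraries without a WT 60 h call, began higher and ended lower, with 33.7% in the lowest bin, 4.72% in bin 5 and 0.0222% in the highest. This exchanged set held 2992 regions. Over all merged regions with no condition at 0 h, the calls of 60 h ran the other way, with 5702 regions (3.19%) called in both WT 60 h libraries and neither CBP 60 h library, and 7149 (4.01%) called in both CBP 60 h libraries and neither WT 60 h library.

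**Figure D2:**
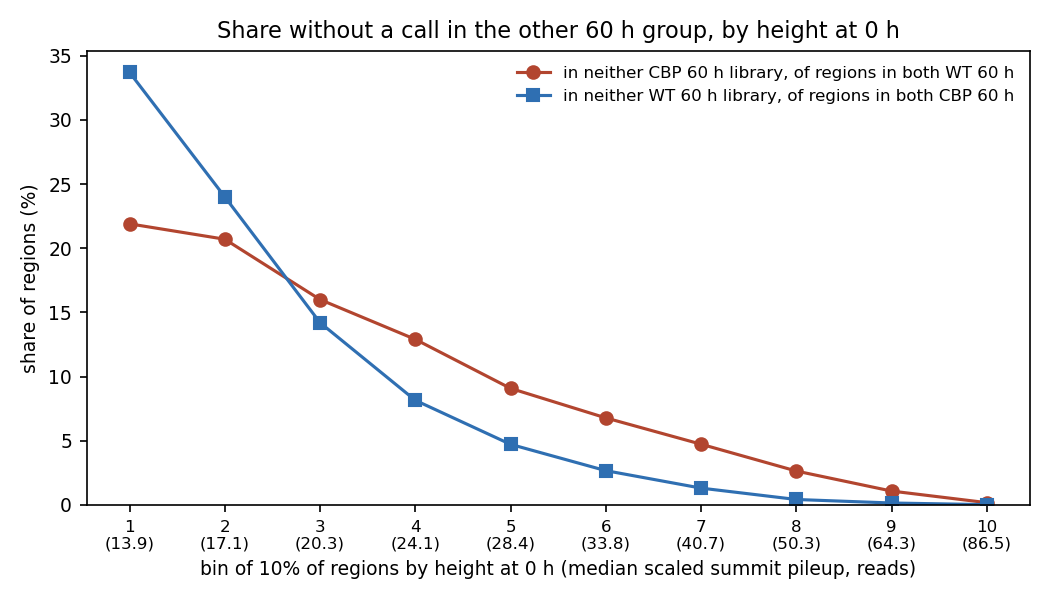
Share of regions (%) that lacked a call in both libraries of the other 60 h group, in 10 equal bins of height at 0 h; the median scaled summit pileup of each bin (reads) is in parentheses. Circles are regions of both WT 60 h libraries without a CBP 60 h call, from 21.9% in the lowest bin to 0.177% in the highest, and squares are the reverse, from 33.7% to 0.0222%.

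The regions without a call in CBP 60 h cells were already lower in CBP than in WT cells at 0 h, a time at which the rule treated both groups alike. Of the 3736 regions, 2666 (71.4%) had a lower mean log2 pileup in CBP 0 h than in WT 0 h libraries, against 43.7% of all 90579 regions called in the 4 libraries at 0 h. The median log2 difference was −0.17, a ratio of 0.889, against 0.03 for all regions tested. In 1818 regions (48.7%) both CBP 0 h libraries were below both WT 0 h libraries, and in 393 (10.5%) both were above, while over all regions tested these shares were 22.7% and 25.2%. The exchanged set, called in CBP 60 h but not in WT 60 h cells, lay on the other side, with a median of 0.20 and 24.3% of regions lower in CBP. Regions called in exactly 1 CBP 60 h library lay between, with a median of −0.05 and 58.2% lower in CBP.

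Region by region, limma on log2(pileup + 1) called 564 of the 3736 regions (15.1%) lower and 29 (0.776%) higher in CBP at 0 h, at a Benjamini-Hochberg adjusted p below 0.05 over all 90579 regions, with 2 libraries a group. Over all regions tested it called 3.95% lower and 2.78% higher. The exchanged set had 13 regions (0.434%) called lower and 269 (8.99%) higher. These counts depend on every library: without either WT 0 h library no region was called, whereas 150 lower and 3 higher regions of the set were called without the first CBP 0 h library and 128 and 1 without the second. At an unadjusted p below 0.05, 589 lower and 61 higher regions were found without the first WT 0 h library and 678 and 87 without the second. With the authors' fold over local background in place of the pileup no region was called, and 865 lower and 96 higher had an unadjusted p below 0.05.

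Scaling moved the balance over all regions but not the direction of the set. With libraries scaled by their most frequent background, 1833 regions were called lower and 2074 higher over all tested, and 323 lower and 26 higher within the set. With quantile normalization these were 2393 and 956 over all, and 371 and 9 within the set. In 13 settings, the share of the set that was lower in CBP at 0 h lay between 65.0% and 73.6%, against 35.7% to 51.7% for all regions tested.

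**Figure D3:**
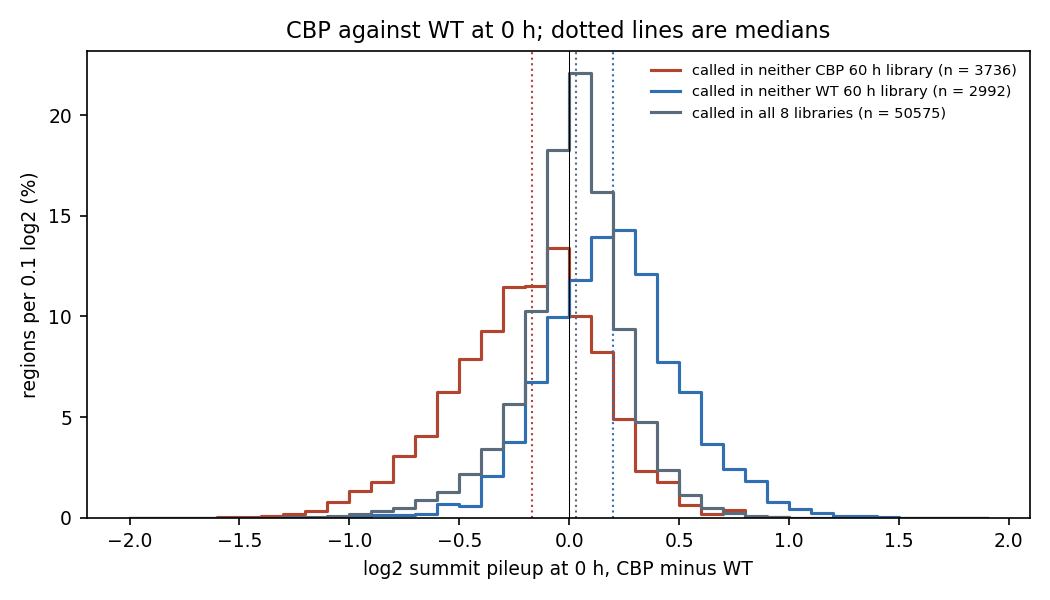
Distribution of the log2 difference in summit pileup at 0 h, CBP minus WT, in bins of 0.1, as a percentage of the regions of each set; dotted lines are medians. The regions called in neither CBP 60 h library centre on −0.17, those called in neither WT 60 h library on 0.20, and those called in all 8 libraries on 0.03.

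Within the set, the regions that stood higher in WT 60 h cells were called lower in CBP at 0 h more often. In 4 equal bins of height in the weaker WT 60 h library, 8.89% of the lowest bin were called lower, 12.5% and 17.9% of the middle bins, and 21.1% of the highest. The median log2 difference was −0.11 in the lowest bin and −0.20 in the highest. These bins rest on WT 60 h heights, whose calls the rule used, and all regions tested were not split in this way. The trend is therefore a description and not a finding about the set. The share called lower also moved with height at 0 h. For all regions tested it was 1.40% in the lowest of the 10 bins, 6.05% in bin 6, where it was highest, 2.16% in bin 9 and 0.221% in the highest bin. The set had 2.97% in the lowest bin, 21.9% in bin 6, its own highest, 7.29% in bin 9, and 1 of 16 regions in the highest bin. Between genes 16.0% of the set were called lower, inside genes 14.7% and at gene ends 11.0%, against 4.38%, 4.46% and 1.05% of all regions tested at those positions.

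The 12 regions with the strongest peaks, by their −log10 q in the weaker WT 60 h library, reached heights of the shared regions. First was a region between genes at chr14:82145754-82147013, 19971 bp from the nearest end of MAT1A, which encodes a methionine adenosyltransferase. It had 47.8 and 60.5 scaled reads in WT 60 h and no call in CBP 60 h, and at 0 h it had 20.3 and 39.5 in CBP, against 58.9 and 65.0 in WT. Both CBP 0 h libraries were below every WT library, and the log2 difference at 0 h was −1.09 (SE 0.14, limma adjusted p = 3.72e-11). Without the first CBP 0 h library it was −0.60 (adjusted p = 0.0521). The region nearest to CTNNA1, the gene of alpha-catenin, which ties cadherins to actin, lay at chr2:140677553-140678487. It had 59.1 and 74.9 scaled reads in WT 60 h cells, and 23.0 and 24.6 in CBP 0 h, against 57.3 and 46.0 in WT 0 h (log2 difference −1.07, SE 0.16, limma adjusted p = 1.31e-08). The groups did not overlap, and the CBP 0 h heights were about those of a typical region of the set.

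A region at chr1:10278110-10279200 near LOC110259923 had 49.0 and 51.8 scaled reads in WT 60 h, and 27.7 and 21.1 in CBP 0 h, against 54.3 and 46.0 in WT 0 h (log2 difference −1.01, SE 0.16, limma adjusted p = 1.45e-07). Inside GRB10, which encodes an adapter that restrains insulin and IGF receptors, the region at chr9:136593303-136594343 had 67.9 and 64.8 in WT 60 h, and 39.9 and 49.2 in CBP 0 h, against 61.9 and 58.9 in WT 0 h (−0.43, SE 0.13, limma adjusted p = 0.0188). Without the first CBP 0 h library the GRB10 difference was −0.26 (adjusted p = 0.352), and it did not pass without the second (limma adjusted p = 0.0555), by background scaling (adjusted p = 0.151) or without a trend (adjusted p = 0.174). In both regions the CBP 0 h libraries were the lowest of the 6 that called them. The regions near EXOC4 (an exocyst subunit) and TBC1D16 (a Rab GTPase-activating protein) were also called lower. So were those inside GOLPH3L (a Golgi protein) and LOC110260995 and the stronger of the regions inside PTPRR. These log2 differences were −0.75 to −0.41. The PTPRR difference, −0.47, was −0.29 without the first CBP 0 h library (adjusted p = 0.339). The 3 other strong regions did not pass the test, with log2 differences of −0.35 inside CSGALNACT1 (chondroitin sulfate synthesis), −0.35 near CCDC117 and −0.22 near NTN4, the gene of the secreted netrin-4. In each of the 12, both CBP 0 h libraries were below both WT 0 h libraries, against 48.7% of the set and 22.7% of all regions tested. The 12 were picked by their WT 60 h peaks, so this is a description.

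**Figure D4:**
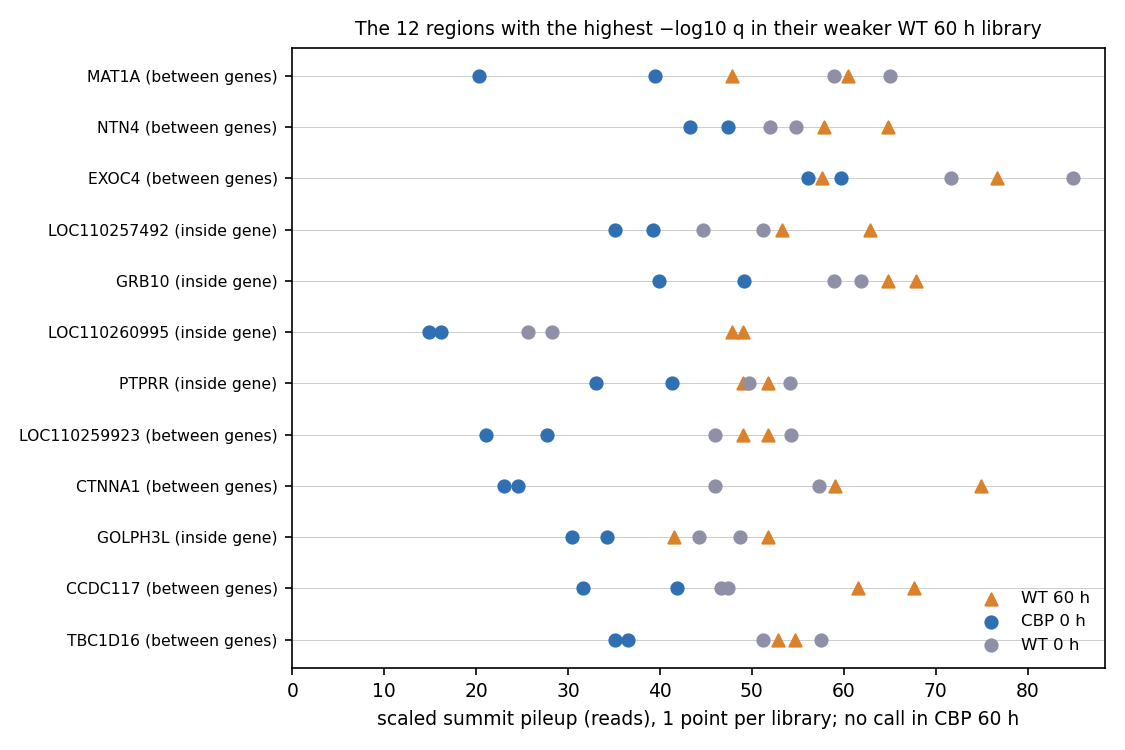
Scaled summit pileup (reads), 1 point per library, of the 12 regions with the highest −log10 q in their weaker WT 60 h library, named by the nearest gene end, with triangles for WT 60 h and circles for CBP 0 h and WT 0 h. No point exists for CBP 60 h. In every row both CBP 0 h points are left of both WT 0 h points, an order found in 48.7% of the 3736 regions and 22.7% of all regions tested.

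In the 5 regions lower in CBP with the smallest p at 0 h, the height in CBP was 0.344 to 0.417 of that in WT. The region at chr1:206823078-206824028 inside CCDC171 had 21.0 and 15.8 scaled reads in CBP 0 h, against 61.2 and 49.4 in WT 0 h, and 45.3 and 38.9 in WT 60 h (log2 difference at 0 h −1.54, SE 0.17, limma adjusted p = 1.58e-15). The nearest CBP 60 h peak was 44802 bp away. A region at chr5:34804078-34804891 inside PTPRR, a receptor-type tyrosine phosphatase that acts on MAP kinases, had 16.9 and 17.6 in CBP 0 h, against 47.4 and 53.5 in WT 0 h (−1.49, SE 0.175, limma adjusted p = 1.89e-13). It had 41.5 and 43.2 in WT 60 h, so the CBP 0 h libraries were the low ones. The others were near GSAP (gamma-secretase activating protein) and FERD3L (a basic helix-loop-helix factor, 205965 bp away) and inside PAK2, a p21-activated kinase of the actin cytoskeleton.

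The opposite pattern, higher in CBP at 0 h and yet without a call in CBP 60 h, was rare. The 5 such regions with the smallest p were near TMEM44 and KCNF1 (a potassium channel subunit), inside ERC2 (a presynaptic active zone protein) and SH3RF3 (a ubiquitin ligase), and inside ULK4, 13964 bp from an end of CTNNB1, the gene of beta-catenin. The ULK4 region at chr13:25221768-25222654 had 38.5 and 49.2 scaled reads in CBP 0 h, against 28.3 and 25.0 in WT 0 h (log2 difference 0.71, SE 0.16, limma adjusted p = 0.000808). In WT 60 h it had 15.1 and 13.0, lower than in any library at 0 h. Its WT 60 h peaks were weak, with a −log10 q of 2.59 in the weaker library, against a lower quartile of 3.54 for the set. All of these 5 were at or below 4.73, which is close to the median of the set, 4.81.

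In WT cells the set was lower at 60 h than at 0 h relative to other regions. The median log2 difference between WT 60 h and WT 0 h was −0.12, with 62.0% of regions lower at 60 h, against 0.12 and 38.1% for the 62095 regions called in all 4 WT libraries. The rule asked for a call in every WT library, so these values are given with no test. By the authors' fold, which divides by local background, the set was also low, with a median of 4.38 and 4.20 in WT 60 h, against 6.04 and 5.83 for regions called in all 8. Local background under the set was 1.31 and 1.28 times the library floor in WT 60 h, against 2.16 and 2.09 times for regions called in all 8.

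Few of the regions lay at gene ends. Of the 3736, 146 (3.91%) had their summit within 1 kb of an end of a protein-coding gene, 2017 (54.0%) elsewhere inside a gene and 1573 (42.1%) between genes. Regions called in all 8 libraries lay at a gene end in 21.8% of cases, inside a gene in 41.9% and between genes in 36.3%. The exchanged set resembled the regions without a CBP 60 h call in this, with 4.75% at gene ends, 47.4% inside genes and 47.8% between genes. The gene table gives no strand and no exons, so a gene end may be a start or a stop and introns are not told from exons. Of the regions called in the other 6 libraries, 1.28% of those at gene ends lacked a CBP 60 h call, against 7.83% inside genes and 7.09% between genes. Gene ends hold tall peaks, with 5040 of their 11406 regions in the highest of the 10 bins of height at 0 h, and the order was not the same in every bin. In the lowest bin 25.0% at gene ends lacked a call, against 25.9% inside genes and 18.2% between genes, and in bin 2 the shares were 18.4%, 23.8% and 17.8%. In bin 5 they were 6.22%, 10.1% and 8.44%. By chromosome the share lay between 4.85% on chromosome 12 and 7.23% on chromosome 15.

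**Figure D5:**
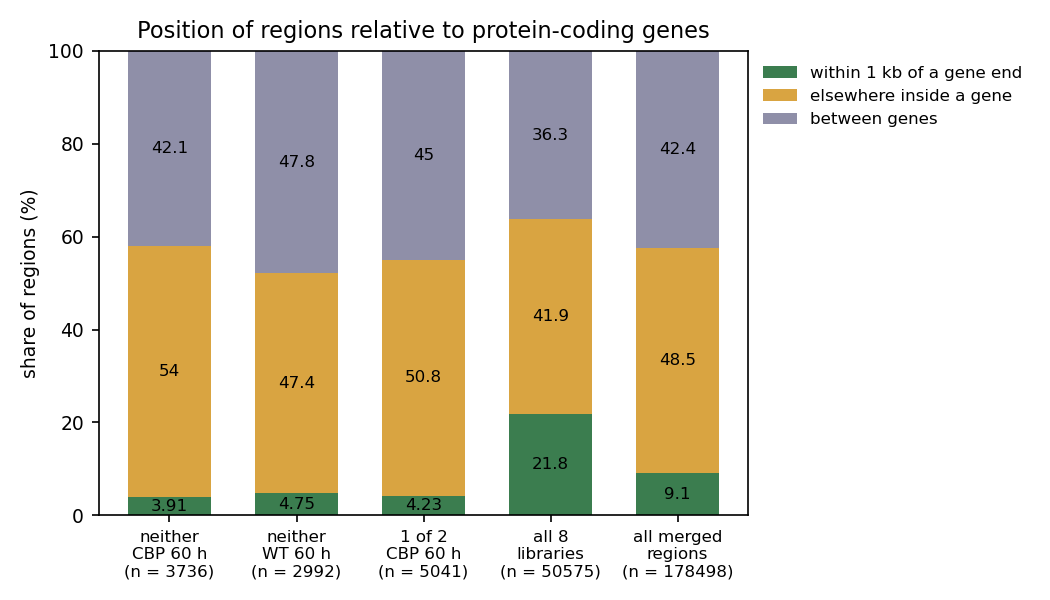
Share of regions (%) by place of the summit (gene end within 1 kb, rest of a gene, between genes) in 5 sets of regions. Regions at gene ends are 3.91% of those called in neither CBP 60 h library and 21.8% of those called in all 8 libraries.

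Of the 8 strongest regions at gene ends, 1 passed the test at 0 h, and it was lower in CBP. Over all 146 regions of the set at gene ends 11.0% were called lower, against 1.05% of all gene-end regions tested. The region at chr2:59411078-59411524, 36 bp from an end of GDF15, a stress-induced secreted factor of the TGF-beta family, had 71.7 and 74.9 scaled reads in WT 60 h, and 50 and 49.2 in CBP 0 h, against 52.0 and 51.4 in WT 0 h. The groups at 0 h were level, with a log2 difference of −0.05 (SE 0.13, limma adjusted p = 0.899). At UGDH, which makes UDP-glucuronate for matrix glycosaminoglycans, the region at chr8:30724899-30725791 had 35.2 and 31.7 in WT 60 h, and 21.6 and 21.1 in CBP 0 h, against 34.4 and 37.2 in WT 0 h. Here CBP 0 h was below every WT library, and the difference passed the test (−0.71, SE 0.18, limma adjusted p = 0.00477).

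The region 454 bp from an end of IER2, an immediate early gene, was the tallest of these, with 102 and 114 scaled reads in WT 60 h, and 98.7 and 96.5 in CBP 0 h, against 94.0 and 90.0 in WT 0 h. It was 366 bp wide, its local background in WT 60 h was 14.8 times the library floor and a CBP 60 h peak lay 177 bp from its edge. The GDF15 region likewise had a background of 6.24 times the floor and a CBP 60 h peak at 1041 bp. The other 5 regions lay at P2RX7 (an ATP-gated cation channel), LOC100738160, KCTD18, STYK1 (a kinase-like receptor) and LSMEM2, with log2 differences at 0 h of −0.36 to −0.04.

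The regions were narrow. Their median width was 852 bp with quartiles of 687 and 1060 bp, against a median of 1240 bp for regions called in all 8 libraries. The exchanged set, also called in 6 libraries, was as narrow, with a median of 847 bp. In 3040 of the 3736 (81.4%) each of the 6 libraries had a single peak in the region, against 80.1% of the exchanged set. The summits of the 6 libraries lay within a median of 117 bp of each other, against 157 bp in the exchanged set. The peaks of the single libraries in them had a median length of 416 and 390 bp in WT 60 h, 629 and 540 bp in CBP 0 h, and 670 and 688 bp in WT 0 h.

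Most of the regions were scattered and had open sites nearby that CBP 60 h cells kept. The nearest other region of the set was a median of 138000 bp away, and 952 regions (25.5%) had one within 50 kb and 225 (6.02%) within 10 kb. In the exchanged set 16.9% had one of their own within 50 kb. A region called in all 8 libraries lay within 10 kb of 1939 regions of the set (51.9%), and the nearest CBP 60 h peak was a median of 5220 bp away.

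By the nearest gene end within 50 kb, 2391 of the regions (64.0%) were linked to 2118 of the 17502 genes that had any linked region. These are links by distance, and whether a region acts on the gene was not measured. Of the genes, 1880 had 1 such region, 204 had 2 and 34 had 3 or more. At 1952 of the 2118 genes another linked region was called in all 8 libraries, and at 248 there was also a region of the exchanged set.

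S100A6, which encodes a small calcium-binding protein, had the most, with 4 of its 9 linked regions, all between genes at 8122 to 23443 bp from its end. The region at chr4:96112861-96114055 had 52.8 and 50.4 scaled reads in WT 60 h, and 35.2 and 36.9 in CBP 0 h, against 50.5 and 52.1 in WT 0 h (log2 difference −0.49, SE 0.14, limma adjusted p = 0.0124). A CBP 60 h peak lay 239 bp from its edge. Its neighbour at chr4:96114303-96115540 had 46.5 and 33.1 in WT 60 h, and 29.7 and 34.2 in CBP 0 h, against 38.2 and 51.4 in WT 0 h (−0.45, SE 0.15, limma adjusted p = 0.0418). In both, the CBP 0 h libraries were below the WT 0 h libraries. The 2 other S100A6 regions had log2 differences of −0.10 and −0.04 and did not pass.

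PTPRR had 3 regions of the set among 10 linked, all inside the gene. At 0 h 2 were called lower in CBP and the third had a log2 difference of −0.36 (SE 0.23, limma adjusted p = 0.398), with 18.3 and 11.4 scaled reads in CBP 0 h, against 18.3 and 19.6 in WT 0 h. C1H9orf131 had 3 of 8, with the one 52 bp from its end called lower at −0.525. A further 3 regions each were linked to WDR45B (autophagy), GFOD2, PRDM10 (a zinc finger protein), DENND4A (a Rab exchange factor), PHACTR4 (an actin and phosphatase regulator), PIP5K1C (a phosphoinositide kinase at focal adhesions), EXD2 (an exonuclease), LOC110257492 and LOC102163801, whose 3 lay inside WDFY2. At these 9 genes no region passed the test at 0 h, with log2 differences of −0.59 to 0.30.

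The gene lists below were set with earlier results of these data known, and are described by counts. Over all linked regions called in the other 6 libraries, 5.67% lacked a CBP 60 h call, and 11 of the 20 lists had a share above that. Across all linked regions of the set the median log2 difference at 0 h, CBP minus WT, was −0.17, with 354 of 2391 called lower and 20 higher. Of all 61466 linked regions tested at 0 h, 2295 were called lower and 1452 higher.

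Myogenic regulators held few. Of 106 regions linked to the genes of this list and called in the other 6 libraries, 2 (1.89%) lacked a CBP 60 h call, and 92 were called in all 8 libraries. Both were called lower in CBP at 0 h. Over the whole list, 13 of 146 linked regions tested at 0 h were called lower and 2 higher. The region at chr2:41434608-41436425, 11248 bp from an end of MYOD1, the basic helix-loop-helix factor that commits cells to muscle, had 25.1 and 23.0 scaled reads in WT 60 h, and 22.3 and 19.3 in CBP 0 h, against 31.3 and 31.8 in WT 0 h (log2 difference −0.57, SE 0.19, limma adjusted p = 0.0453). There the CBP 0 h libraries were below the WT 0 h libraries.

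Satellite cell and Notch genes had 3 of 110 (2.73%), near or inside PAX7, NCAM1 and TENM4. Over the whole list, 6 of 194 linked regions tested at 0 h were called lower in CBP and 7 higher. PAX7 marks satellite cells, and the region inside it at chr6:77168151-77168600 had 50.3 and 47.5 scaled reads in WT 60 h, and 56.1 and 63.2 in CBP 0 h, against 58.9 and 63.6 in WT 0 h (log2 difference −0.025, SE 0.12, limma adjusted p = 0.944). It was level at 0 h, and a CBP 60 h peak lay 810 bp away. Inside NCAM1, a cell adhesion molecule that rises as myoblasts differentiate, the region at chr9:40956133-40957216 had 16.3 and 21.6 in WT 60 h, and 10.1 and 14.0 in CBP 0 h, against 21.4 and 23.0 in WT 0 h (−0.84, SE 0.23, limma adjusted p = 0.00797). The region near TENM4, a teneurin, differed by −0.05 (SE 0.23).

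Genes of the contractile apparatus held 10 of 120 (8.33%). Of their 173 linked regions tested at 0 h, 34 were called lower and 8 higher in CBP. Among the 10, 2 were called lower and 1 higher, with a median log2 difference of −0.155. The lower calls were thus common over the whole list and not particular to the 10. MYBPC1, the slow myosin-binding protein C, had 2, and the one at chr5:82652017-82653127 had 26.4 and 14.4 scaled reads in WT 60 h, and 23.0 and 12.3 in CBP 0 h, against 28.3 and 26.4 in WT 0 h (−0.66, SE 0.21, limma adjusted p = 0.0328). XIRP2, an actin-binding protein of the sarcomere, MYL3, a slow myosin light chain, and CASQ2, the calcium store protein calsequestrin, had 1 each, with log2 differences of −0.25, −0.07 and −0.28 that did not pass.

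Genes of myoblast fusion and adhesion held 11 of 158 (6.96%). Of their 223 linked regions tested at 0 h, 10 were called lower and 6 higher in CBP. Among the 11, 3 were called lower and none higher, with a median of −0.26. Inside MYOF, whose product myoferlin acts in membrane fusion of myoblasts, the region at chr14:104918491-104919277 had 59.1 and 64.8 scaled reads in WT 60 h, and 29.7 and 27.2 in CBP 0 h, against 49.7 and 46.7 in WT 0 h (−0.73, SE 0.15, limma adjusted p = 0.000196). Its CBP 0 h libraries were well below all 4 WT libraries. Regions at TLN2 (talin 2), JAM3 (a junctional adhesion molecule) and CDH2 (N-cadherin) differed by −0.39, 0.20 and −0.07 and did not pass.

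Cytoskeleton and focal adhesion genes held 14 of 209 (6.70%). Of their 280 linked regions tested at 0 h, 15 were called lower and 7 higher in CBP. Among the 14, 2 were called lower and none higher, with a median of −0.25. PALLD (palladin) and CALD1 (caldesmon), both proteins that bind actin, had 2 each, and TNS3 (tensin 3) had 1. The PALLD region at chr14:20972749-20974327 had 26.4 and 30.2 scaled reads in WT 60 h, and 32.5 and 27.2 in CBP 0 h, against 45.9 and 38.6 in WT 0 h (−0.48, SE 0.16, limma adjusted p = 0.0384). The other PALLD region and those at CALD1 and TNS3 had differences of −0.38 to −0.13 and did not pass.

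Insulin and IGF genes had the highest share among the signalling lists, 12 of 126 (9.52%). Of their 202 linked regions tested at 0 h, 10 were called lower and 3 higher in CBP. Among the 12, 3 were called lower and none higher, with a median of −0.11. FOXO1 and FOXO3, transcription factors held in check by insulin signalling, and PIK3R1, a regulatory subunit of PI3 kinase, had 2 each. TRIM63, a muscle ubiquitin ligase induced by FOXO factors in atrophy, had 1 at chr6:83523433-83524581, with 30.2 and 31.7 scaled reads in WT 60 h, and 31.1 and 25.5 in CBP 0 h, against 39.0 and 42.6 in WT 0 h (−0.51, SE 0.16, limma adjusted p = 0.0297). The regions at FOXO1, FOXO3 and PIK3R1 had differences of −0.24 to 0.54 and did not pass; both regions of FOXO1 and the region between genes near FOXO3 were over 10 kb from a CBP 60 h peak.

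Wnt genes held 11 of 148 (7.43%). Of their 221 linked regions tested at 0 h, 7 were called lower and 5 higher in CBP. Among the 11, 1 was called lower and 1 higher, with a median of −0.18. TCF7L2, a DNA-binding partner of beta-catenin, had 2, of which the one at chr14:123375735-123376475 had 44.0 and 34.6 scaled reads in WT 60 h, and 16.9 and 14.0 in CBP 0 h, against 24.5 and 25.7 in WT 0 h (−0.66, SE 0.22, limma adjusted p = 0.0391). RSPO3, a secreted enhancer of Wnt signalling, had 2, and TCF7 and WNT9A had 1 each, with differences of −0.30 to 0.19. TGF-beta and BMP genes held 9 of 177 (5.08%), with none of the 9 called at 0 h and a median of −0.12. Among them were 2 at SKI, a corepressor of SMAD proteins, and 1 each at the receptors ACVR1 and BMPR2 and at SMAD2. Over the whole TGF-beta and BMP list, 6 of 254 linked regions tested at 0 h were called lower and 3 higher.

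Matrix and fibroblast genes held 14 of 241 (5.81%). Of their 316 linked regions tested at 0 h, 15 were called lower and 4 higher in CBP. Among the 14, 2 were called lower and none higher, with a median of −0.27. COL15A1, a collagen of basement membranes, had 3 inside the gene, of 50.4 to 71.7 scaled reads in WT 60 h, with differences at 0 h of −0.26 to 0.05 that did not pass. Near COL6A3, a chain of collagen VI, the region at chr15:136998649-136999607 had 28.9 and 25.9 in WT 60 h, and 18.9 and 16.7 in CBP 0 h, against 29.1 in each WT 0 h library (−0.67, SE 0.20, limma adjusted p = 0.0228). PRRX1, a mesenchymal homeobox factor, had 2 and LOXL1, a collagen and elastin crosslinking enzyme, had 1, with differences of −0.38 to 0.20. Adipogenic genes held 6 of 91 (6.59%), with none of the 6 called at 0 h and a median of −0.29. They lay at EBF2 and ZNF423 (2 each, transcription factors of fat progenitors), LIPE and FASN. Over the whole adipogenic list, 2 of 121 linked regions tested at 0 h were called lower and 5 higher.

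Genes of the acetyltransferase, deacetylase and bromodomain list held 4 of 106 (3.77%). Of their 145 linked regions tested at 0 h, 8 were called lower and 3 higher in CBP. None of the 4 was called at 0 h. The strongest lay inside KAT6B, a MYST family acetyltransferase, at chr14:77400754-77402003, with 80.4 and 80.6 scaled reads in WT 60 h, and 66.3 and 64.1 in CBP 0 h, against 77.2 and 71.7 in WT 0 h (−0.18, SE 0.12, limma adjusted p = 0.430). At CREBBP, the gene of CBP, a region 38846 bp from its nearest end at chr3:38348757-38350132 had 25.1 and 18.7 in WT 60 h, and 29.1 and 21.9 in CBP 0 h, against 31.3 and 35.2 in WT 0 h (−0.37, SE 0.18, limma adjusted p = 0.218). Both CBP 0 h libraries were below the WT 0 h libraries at each of these regions. The other 2 lay at NCOA3, a steroid receptor coactivator, and near SMARCA4, the ATPase of the BAF remodelling complex, with differences of 0.01 and −0.33.

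AP-1 and immediate early genes held 5 of 121 (4.13%) with none of the 5 called at 0 h, at IER2, IER3, JUN and DUSP6 among others, and their median was 0.08. Over the whole list, 1 of 144 linked regions tested at 0 h was called lower and 3 higher. The JUN region, 344 bp from an end of the gene, had 64.1 and 67.7 scaled reads in WT 60 h, and 55.4 and 59.7 in CBP 0 h, against 52.0 and 58.2 in WT 0 h, and a CBP 60 h peak lay 417 bp away. Inflammatory and NF-kB genes held 6 of 111 (5.41%) with none of the 6 called at 0 h and a median of 0.08, among them regions at LIF, CXCL2, VCAM1 and NFKB1. Over the whole list, 5 of 155 linked regions tested at 0 h were called lower and none higher. Cell cycle genes held 5 of 73 (6.85%), with 2 at RBL1 (the retinoblastoma relative p107) and 1 each at CDKN2B, CCNE2 and CCND1, and a median of −0.20. Mitochondrial and oxidative genes held 5 of 60 (8.33%), at CPT1A (2), PPARGC1A, ACADM and PPARA, with a median of −0.02. None of these 5, nor of the 5 at cell cycle genes, was called at 0 h. Over the whole lists, 5 of 113 cell cycle regions tested at 0 h were called lower and 2 higher. For mitochondrial and oxidative genes, 1 of 83 was called lower and 2 higher.

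Of the lists of other cell types, immune markers had 3 of 17 (17.6%, ITGAM and PTPRC among them), the highest share of the 20 lists on the smallest number of regions. Endothelial markers had 2 of 42 (4.76%, VWF and PECAM1), neural and Schwann markers 1 of 31 (3.23%, PMP22), pericyte markers 1 of 31 (3.23%, MCAM) and housekeeping genes 2 of 29 (6.90%, GAPDH and B2M). None of these regions was called at 0 h. Over the whole lists, the lower and higher calls at 0 h were 1 and 4 of 69 endothelial regions tested and 1 and 2 of 52 neural regions. They were 5 and 0 of 38 pericyte regions, and none of 26 immune or 41 housekeeping regions was called. As a check of the labelled cell type, a region within 1 kb of a gene end was called in all 8 libraries for 14 of 23 satellite cell and Notch genes, PAX7 and PAX3 included, and for 13 of 23 myogenic regulators, MYOD1 and MYF5 included. MYOG and MYF6 had no such region. Of markers of other cells it was called for 27 of 38 matrix and fibroblast genes, 10 of 22 adipogenic, 4 of 14 endothelial, 4 of 12 immune, 6 of 12 neural and 6 of 10 pericyte genes, against 60.2% of all genes with a linked region. The part of such cells in the results above was not tested.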

How the data were processed

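ATAC-seq peaks of 8 libraries were analysed. Trimmomatic and MACS2 2.1.0 on the Sscrofa11.1 build are named for trimming and peak calling per the submitters' processing notes. The aligner and the handling of duplicates and of the transposase shift are not stated there, and each could move heights and edges. The authors deposited 1 peak list per library, unpooled, with a score, a fold (ratio) over local background, and −log10 p-values and −log10 q-values for each peak.

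The whole summit pileup and local background were solved from the deposited fold and −log10 p, and 100% of peaks gave whole reads within 0.01 of −log10 p. Read totals are unknown, so relative depth is the most frequent local background of a library. Scaled pileups are pileups times a factor of 0.676 to 1.44 per library. At 0 h, log2(pileup + 1), centred on the library median, was compared with limma 3.58.1 (trend, R 4.3.3), tested on simulated data, over the 90579 regions called in all 4 libraries.

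The members, tests and 20 gene lists (536 entries, 514 matched to the RefSeq table for Sscrofa11.1) were chosen with earlier results of these data known. Named are the 12 regions with the highest −log10 q in their weaker WT 60 h library, the 12 genes with the most regions, up to 4 genes per list (a few are not reported here), the 8 strongest regions at gene ends, the 5 smallest p-values at 0 h in each direction, and 5 regions on each side of the rule. Links reach 50 kb. No genome sequence was used here, so no sequence is shown and the planned motif search was not run. Alternatives covered call thresholds, merging, links, scaling, pseudocount, a height filter, limma settings, a replicate block and leaving out each library; 3 narrower versions of the set, their counts at 0 h and leaving out libraries in the comparison of times were added after seeing the data.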

Additional observations from a re-analysis of the deposited data

How the results depend on the processing

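The number of regions without a CBP 60 h call was 2489 with equal numbers of peaks in all libraries, 1736 when only regions with a −log10 q of at least 5 in both WT 60 h libraries were kept, and 2116 when only those on low local background were kept. It lay between 3773 and 6505 when a library was left out, as fewer calls were then asked for. The regions changed more than their number: with peaks covering 50% of the region it was 3432, of which 986 were shared with the 3736, and with peaks of −log10 q of at least 5 it was 3344, of which 1544 were shared. The share at gene ends was 3.09% with equal peak numbers, 4.60% with 50% of the region covered, 2.25% and 7.52% with 500 and 2000 bp around a gene end, 3.23% at the higher q and 2.36% on low background. Between 3.69% and 4.20% were at gene ends when a library was left out, 52.3% to 54.2% inside genes and 42.0% to 43.5% between genes. With 50% covered, 49.9% were inside and 45.5% between genes, with 2000 bp around a gene end 52.2% and 40.3%, and on low background 44.0% between genes. Links within 10 kb and 1 kb left 972 and 145 genes, and 50 and 6 regions on the lists in place of 125.

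At 0 h, the lower and higher counts within the set, and then over all regions tested, were 186 and 9 and 1566 and 971 with regions above the median height only, 330 and 17 and 1756 and 1113 without a trend, 323 and 26 and 1833 and 2074 by background scaling, and 371 and 9 and 2393 and 956 with quantile normalization. With the authors' fold all 4 counts were 0. When a 0 h library was left out they were 0 to 150 lower and 0 to 3 higher within the set, and 0 to 765 lower and 0 to 182 higher over all. The higher count was 3 at the higher q in both WT 60 h libraries, 13 with peaks of −log10 q of at least 5 and 17 with 50% covered. The median of the set less that of all regions, −0.20, was −0.13 with the authors' fold, −0.18 with a pseudocount of 5, −0.16 above the median height, and −0.22 to −0.20 when a library was left out. With the replicate number as a block the counts were 544 and 28, and 3367 and 2328 over all. Same-numbered libraries did not deviate together (correlation −0.03). With 2 libraries a group this is a single contrast, so it cannot show whether the numbers pair them. In WT cells the difference between times, −0.24, was −0.238 by the authors' fold and −0.249 to −0.245 when a library was left out.

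Of the 30 regions named by strength, gene end or smallest p, 7 of the values recomputed over 12 settings changed sign: GDF15 was 0.001 by background scaling; STYK1 was 0.011 by background scaling, 0.035 without the first CBP 0 h library and −0.144 to 0.071 when a library was left out; P2RX7 was 0.031 by the authors' fold; and KCTD18 was −0.341 to 0.152 when a library was left out, with 0.037 without the second CBP 0 h library. None of the 4 had passed the test, and another 92 values kept their direction and lost the call. Causes were not tested. No peak of fewer than 8 reads was called in a CBP 60 h library, and the height needed rises with local background. This limits weak regions, and also taller ones on high background.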
